A study of Mus musculus with 4 samples.

Results

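Cytosolic ribosomal protein genes and their paralogs were examined in LSK cells, mouse bone marrow cells sorted as Lin-Sca-1+c-Kit+, among which are the blood stem cells and early progenitors. Genes were taken by symbol: Rpl or Rps followed by a number and at most a short suffix, with Rplp0, Rplp1, Rplp2 and Rpsa added and names marked as pseudogenes left out. This gave 88 genes of the 47561 measured, 35 of the small subunit and 53 of the large. Of the 88, 11 were paralogs, each read against the member it resembles (its parent gene), and the other 77 were 31 genes of the small subunit and 46 of the large. Names such as Rpl7a, Rpl10a or Rps27a are proteins of their own and were not counted as paralogs.

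The ribosome is the particle that translates mRNA into protein. Its small subunit holds the mRNA and reads the codons, and its large subunit joins the amino acids; each is built on rRNA from ribosomal proteins that are needed in near-equal numbers. Their mRNAs are short, abundant and jointly controlled, most of them through a pyrimidine tract at the very start of the mRNA, and blood progenitors are known for their sensitivity to the loss of single ribosomal proteins.

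The libraries came from 12-week-old C57BL/6 mice, 2 libraries with the genotype Metrn f/f and 2 labelled Metrn-cKO. The mice of all 4 libraries carried the floxed Metrn gene, which codes for the secreted protein meteorin. The Metrn-cKO mice also carried what the labels call LysM. This is the name in use for a Cre recombinase expressed from the lysozyme gene of macrophages, neutrophils and their relatives. The labels do not say whether the gene was deleted in the sorted LSK cells. Metrn itself was at 29.3 and 66.3 FPKM in Metrn f/f 1 and 2 and at 42.3 and 36.7 FPKM in Metrn-cKO 1 and 2. These values overlapped, and the gene therefore gave no check of the genotype labels. FPKM is a level scaled by transcript length and library size, meant to let levels be set side by side between genes. The length used for each gene is not known here, and differences between libraries varied with transcript length, as given below. Ranks between genes are therefore approximate. The sum of FPKM over all genes also differed between the libraries.

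Libraries of the same genotype were unlike each other. The 12 LSK markers examined were all measured, and 11 or 12 of them reached 1 FPKM in each library. They summed to 1160 FPKM in Metrn f/f 1 and to 1287 FPKM in Metrn-cKO 2, against 636 and 488 FPKM in the other two, Metrn f/f 2 and Metrn-cKO 1. The 14 erythroid markers summed to 38324 and 31638 FPKM in Metrn f/f 2 and Metrn-cKO 1, against 4157 and 3418 in Metrn f/f 1 and Metrn-cKO 2. The 12 neutrophil markers summed to 32673 and 58572 FPKM in the former pair, against 2664 and 2097 in the latter. The pair Metrn f/f 2 and Metrn-cKO 1 crosses the genotypes, so every mean below joins unlike libraries. In bulk RNA, fewer cells of a type and less RNA per cell cannot be told apart. The titles number 2 replicates per genotype without saying whether each is 1 mouse, and nothing is given on litters or sort days. The p-values therefore measure only the spread between these libraries.

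No ribosomal protein gene passed the test between genotypes. Of the 88 genes, 85 reached 1 FPKM in at least 2 libraries and were tested; the other 3, Rpl10l, Rpl39l and Rpl3l, are paralogs. By limma, 0 of the 85 had an adjusted p under 0.05, against a background of 0% (0 of 13148 tested genes), and 0 had an unadjusted p under 0.05, against 39 of all tested genes. The smallest unadjusted p in limma was 0.111, for Rpl7a, with an adjusted p of 1.00. Their median difference, Metrn-cKO minus Metrn f/f, was -0.36 on the log2(FPKM + 1) scale, beside 0.07 for all tested genes. On average 81 of the 85 were lower in Metrn-cKO, and 4 were higher (Rps27, Rps29, Rps28 and Rpl39, the last 2 at -0.04 and -0.03 when libraries were scaled by the median of ratios). The lower level on average rested on the library Metrn f/f 2. Without it the median difference was 0.30, with 79 genes higher and 6 lower, and without Metrn f/f 1 it was -1.04, with all 85 lower. With quantile normalization it was -0.13. Of the 85, only Rpl7a had both Metrn-cKO values under both Metrn f/f values, where 5.73% of all tested genes did, and 0 had both above, where 6.31% of all tested genes did.

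**Figure D1:**
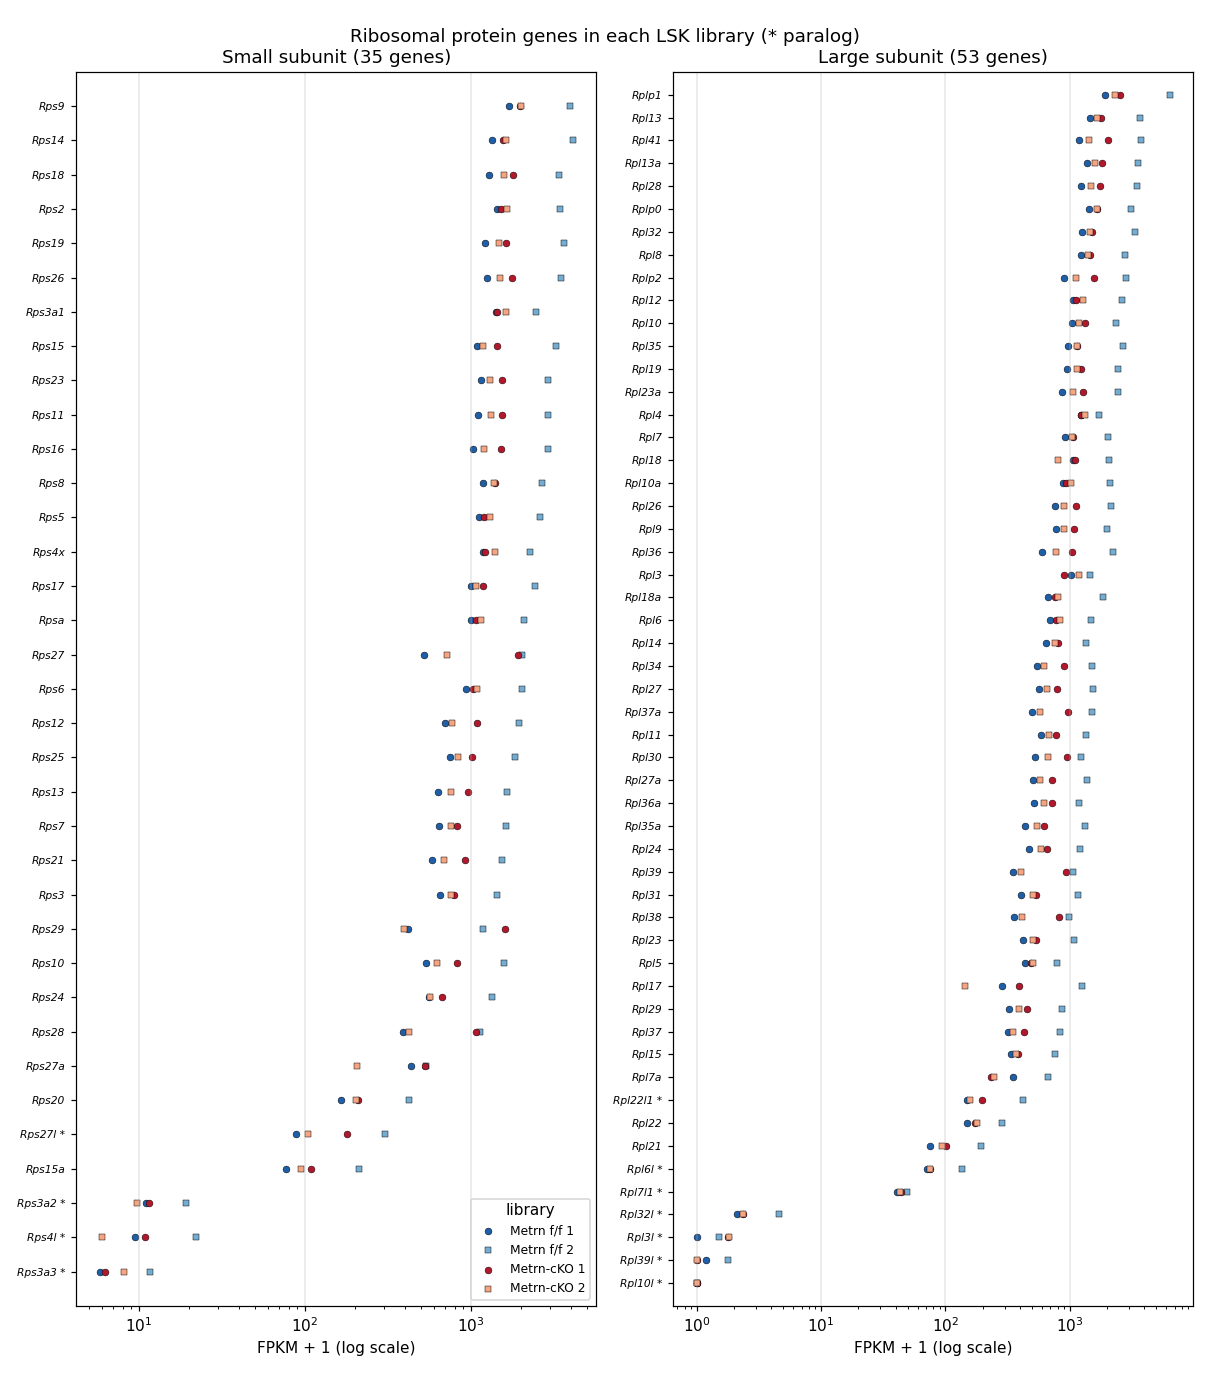
FPKM + 1 of each of the 88 ribosomal protein genes (log scale), ordered by mean within each subunit, with 1 point per library and paralogs starred. The light blue squares of Metrn f/f 2 lie farthest right for 84 of the 85 tested genes, and the 77 genes that are not paralogs all stay above 50 FPKM in every library.

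The main difference among the libraries was a joint one. Metrn f/f 2 held the highest value for 84 of the 85 tested genes, where it was highest for 29.8% of all tested genes; Rps29 was highest in Metrn-cKO 1. Over Metrn f/f 1, the library of the same genotype, Metrn f/f 2 was at least 2-fold higher in FPKM for 73 of the 85, beside 16.4% of all tested genes. The median fold in FPKM over Metrn f/f 1 was 2.58 in Metrn f/f 2 (1.21 to 4.37), 1.30 in Metrn-cKO 1 (0.658 to 3.87) and 1.17 in Metrn-cKO 2 (0.468 to 1.48). The FPKM of all genes summed to 392717 and 671802 in Metrn f/f 1 and 2 and to 562401 and 412955 in Metrn-cKO 1 and 2. Of these sums the members held 15.9%, 23.6%, 14.9% and 17.4% in the same order. Metrn-cKO 1 was thus above Metrn f/f 1 by median fold and below it by share. On the log2(FPKM + 1) scale the median difference between the 2 Metrn f/f libraries was 1.36, a larger size than the -0.36 between the genotypes. Genes of the small subunit had a median difference of 1.34 in this step and those of the large subunit 1.36.

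Transcript length moved with this difference among other genes and, over most of the range, among members. Ribosomal protein transcripts are short: of the 80 tested members with a protein-coding length, 10 were under 500 bases, 41 between 500 and 1000, 23 between 1000 and 2000, and 6 were longer. Among transcripts under 500 bases, the median log2 difference of Metrn f/f 2 from Metrn f/f 1 was 1.52 for members and 1.41 for 51 other genes. From 500 to 1000 bases it was 1.40 for members and 1.22 for 611 other genes. From 1000 to 2000 bases the members stood at 1.26 and 2377 other genes at 0.52. For transcripts of 2000 to 4000 bases the median was 0.92 for 5 members and -0.30 for 4544 other genes. At 4000 bases and over the only member, Rps15a, went against this order, at 1.46 beside -1.16 for 3304 other genes; its listed transcript has 5179 bases, of which 390 are coding. Short genes in general were thus higher in Metrn f/f 2, and the gap between members and other genes of like transcript length was small under 1000 bases and wider above. By coding length the gap was wider among short genes as well. It was 1.56 for members and 1.17 for other genes under 300 coding bases. From 300 to 600 coding bases, where 47 members lay, the medians were 1.43 and 0.83, and from 600 to 1200 they were 1.14 and 0.23. Metrn-cKO 1 had a weaker slope of the same sign, at 0.91 for members under 500 bases and 0.63 for the other genes, then 0.43 for both from 500 to 1000 bases. Metrn-cKO 2 had a still weaker one among other genes, from 0.11 under 500 bases to -0.0048 at 4000 bases and over, and its members stood between 0.21 and 0.30 in every length class. The part that length played in the difference of the members was not tested.

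**Figure D2:**
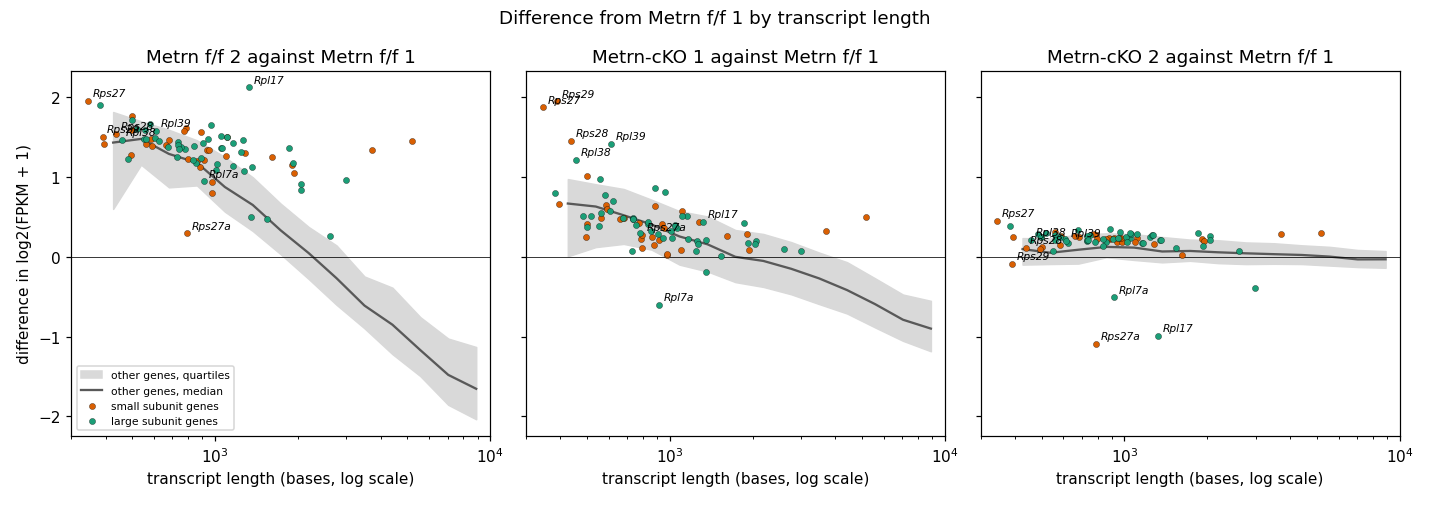
Difference of each library from Metrn f/f 1 in log2(FPKM + 1) against transcript length (log scale), with small subunit genes in orange, large subunit genes in green, and the median (line) and quartiles (band) of other protein-coding genes. In Metrn f/f 2 the line falls with length and the members follow it up to about 1000 bases; in Metrn-cKO 1 Rps29, Rps27, Rps28, Rpl39 and Rpl38 stand above it; in Metrn-cKO 2 Rps27a, Rpl17 and Rpl7a stand below the other members.

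Markers of other cell types were also higher in Metrn f/f 2, as they were in Metrn-cKO 1. Relative to Metrn f/f 1, the median log2 difference of the 14 erythroid markers was 3.06 for Metrn f/f 2 and 1.22 for Metrn-cKO 1. The 12 neutrophil markers differed by 2.91 and 3.27, and the 12 B and plasma cell markers by 2.68 and 3.86, in the same 2 libraries; the latter summed to 222 and 3561 FPKM in the controls and 11063 and 322 FPKM in the Metrn-cKO mice. For the 14 macrophage and monocyte markers the differences were 2.80 and 1.37, with sums of 422 and 1937 FPKM in the Metrn f/f mice and 1167 and 377 FPKM in the Metrn-cKO libraries. No erythroid, neutrophil or macrophage marker was at 0 in any library, while Ms4a1, a B cell marker, was at 0 in Metrn-cKO 2. Erythroid and macrophage markers were thus higher in Metrn f/f 2 than in Metrn-cKO 1, and neutrophil and B cell markers lower. The part of these cells in the levels of the members was not tested.

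In summed FPKM, small and large subunit genes kept nearly the same proportion in every library. Members took 15.9% and 23.6% of all FPKM in the Metrn f/f mice, and 14.9% and 17.4% in the Metrn-cKO mice. Metrn f/f 2 again stood apart, and the means, 19.7% ± 5.40 (SD, n = 2) and 16.2% ± 1.81 (SD, n = 2), overlapped within their SD. The summed FPKM of the small subunit divided by that of the large was 0.790 and 0.781 in the Metrn f/f mice and 0.817 and 0.789 in the Metrn-cKO libraries. The means were 0.786 ± 0.0061 (SD, n = 2) and 0.803 ± 0.020 (SD, n = 2), a gap smaller than the spread within Metrn-cKO. Without the 5 short genes that were high in Metrn-cKO 1 (Rps27, Rps28, Rps29, Rpl38 and Rpl39, chosen after their values were seen) the ratio was 0.767, 0.749, 0.745 and 0.766 in the same order, so Metrn-cKO 1 went from the highest ratio to the lowest. By gene the small subunit had the higher levels: the median of the mean FPKM was 1328 over its 31 genes that are not paralogs and 986 over the 46 of the large subunit. The medians of the small subunit were 1003 and 2085 FPKM in Metrn f/f 1 and 2 and 1207 and 1095 FPKM in Metrn-cKO 1 and 2. Those of the large subunit were 657, 1521, 938 and 794 FPKM in the same order. The proportion of these medians varied more between libraries than that of the sums. The median difference between genotypes was -0.36 on the log2(FPKM + 1) scale for both subunits, with 32 of 35 small and 49 of 50 large tested members lower on average.

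**Figure D3:**
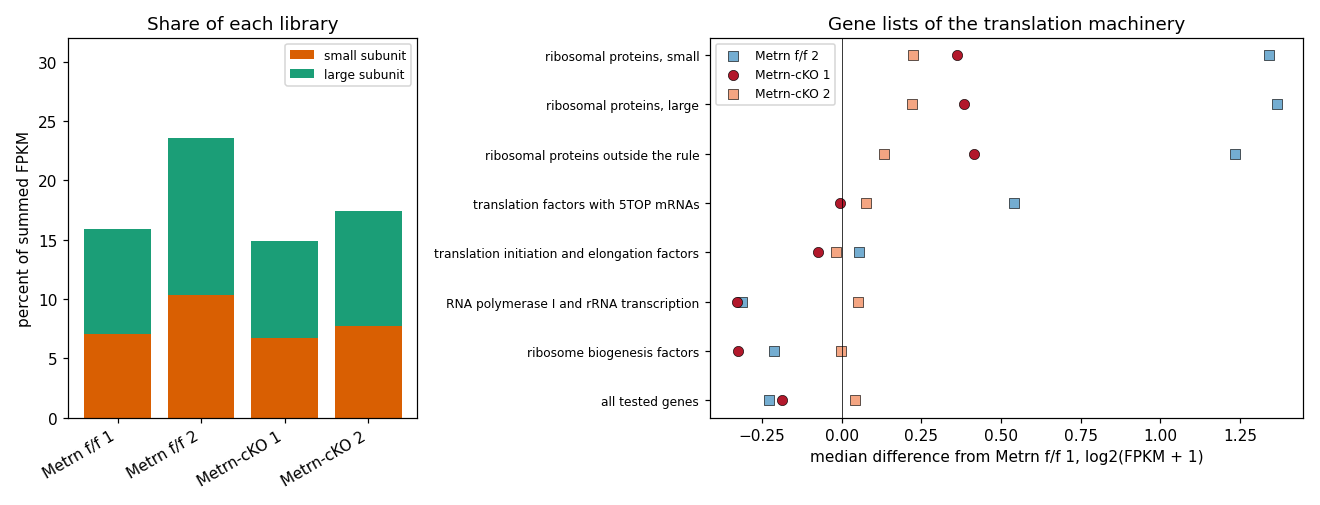
Left, percent of all FPKM taken by small (orange) and large (green) subunit genes in each library; right, the median difference of each library from Metrn f/f 1 in log2(FPKM + 1) for the 2 subunits, 5 further lists of the translation machinery and all tested genes. The share is 23.6% in Metrn f/f 2 and 14.9% to 17.4% elsewhere, and only the ribosomal protein lists have medians above 1 in Metrn f/f 2.

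Within a library the members differed by more than they did between libraries. Rplp1, an acidic protein of the stalk that recruits elongation factors to the large subunit, had the highest level in every library, at 1941 and 6402 FPKM in the Metrn f/f mice and 2525 and 2303 FPKM in the Metrn-cKO mice. Rpl21, also of the large subunit, was the lowest gene that is not a paralog in every library, at 75.1 and 195 FPKM in the Metrn f/f mice and 101 and 92.3 FPKM in the Metrn-cKO mice. The step from Rpl21 to Rplp1 was between 24.9-fold and 32.9-fold. Both the last place and this step are uncertain, because 4 pseudogene rows held 76.0% of the Rpl21 signal, and with them it stood at 323 to 786 FPKM. All 77 genes that are not paralogs stood above 50 FPKM in every library, and 75 of them above 100 FPKM.

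The most abundant small subunit genes were Rps9, Rps14, Rps18, Rps2 and Rps19. Rps9, a protein of the decoding region that takes part in reading accuracy, was at 1695 and 3937 FPKM in the Metrn f/f mice and 1964 and 1996 FPKM in the Metrn-cKO mice. Rps19, the gene most often mutated in Diamond-Blackfan anemia, was at 1218 and 3645 FPKM in the Metrn f/f mice and 1638 and 1485 FPKM in the Metrn-cKO mice, a difference of -0.43 ± 0.96 (moderated SE, n = 2 per genotype) on the log2(FPKM + 1) scale. For Rps14, whose loss on a deleted chromosome arm marks a form of myelodysplasia, the levels were 1347 and 4114 FPKM in the Metrn f/f mice and 1568 and 1627 FPKM in the Metrn-cKO mice. In each of the 3 genes both Metrn-cKO values lay between the 2 Metrn f/f values, with Metrn f/f 1 lowest. Rps24 and Rps26, also mutated in Diamond-Blackfan anemia, had the same order: Rps26 stood at 1257, 3471, 1762 and 1490 FPKM, and Rps24 at 559.6, 1332, 673.6 and 566.1 FPKM in Metrn f/f 1, Metrn f/f 2, Metrn-cKO 1 and Metrn-cKO 2.

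Abundant large subunit genes were likewise highest in Metrn f/f 2. After Rplp1 came Rpl13, Rpl41, Rpl13a and Rpl28 in mean level; Rpl41, the smallest ribosomal protein, was at 1196 and 3778 FPKM in the Metrn f/f mice and 2039 and 1423 FPKM in the Metrn-cKO mice. Rpl5 and Rpl11 form a particle with the smallest rRNA of the large subunit and, when free, bind Mdm2, the protein that keeps p53 low. Rpl5 was at 438 and 786 FPKM in the Metrn f/f mice and 491 and 506 FPKM in the Metrn-cKO mice, and Rpl11 at 584 and 1349.6 FPKM against 779 and 682 FPKM. Their differences between genotypes on the log2(FPKM + 1) scale were -0.23 ± 0.61 and -0.28 ± 0.72 (moderated SE, n = 2 per genotype). Rpl24, altered in the Belly spot and tail mouse, stood at 467 and 1212 FPKM in the Metrn f/f mice and 657 and 591 FPKM in the Metrn-cKO mice.

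Few genes left the common pattern. Relative to the median member of the same library, 58 of the 85 tested genes ranged over less than 0.5 on the log2(FPKM + 1) scale across the 4 libraries, and 6 ranged over more than 1. Rps13 (0.040), Rps21 (0.077) and Rpl9 (0.13) varied least among genes with a mean of at least 10 FPKM. Rpl17 (2.01), Rps29 (1.69), Rps27a (1.34), Rps27 (1.28) and Rpl7a (1.20) varied most. The sixth over 1 was the paralog Rpl7l1 (1.08). Rps29 and Rps27 are very short and were high in Metrn-cKO 1, at 3.87 and 3.68 times their Metrn f/f 1 level. Other short transcripts, Rps21 of 394 bases and Rpl36 of 383 bases, were at 1.59 and 1.74 times theirs. For members under 500 bases the median log2 difference of Metrn-cKO 1 from Metrn f/f 1 was 0.91. It was 0.43 for members from 500 to 1000 bases. The part of transcript length in these levels was not tested. Rpl17, Rps27a and Rpl7a have near-identical pseudogenes.

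Rps29, a small zinc-binding protein of the small subunit also mutated in Diamond-Blackfan anemia, stood at 418 and 1187 FPKM in the Metrn f/f mice and 1617 and 394 FPKM in the Metrn-cKO mice. Its levels in Metrn-cKO 1 and Metrn-cKO 2 thus lay above and below both control values. Rps27 was at 525 and 2043 FPKM in the Metrn f/f mice and 1930 and 718 FPKM in the Metrn-cKO mice. It also has a copy, Rps27rt, that is identical over all 252 coding bases and was at 152 and 256 FPKM in the Metrn f/f mice and 178 and 127 FPKM in the Metrn-cKO mice, so the level of Rps27 and ratios to it are uncertain. Rps28, Rpl39 and Rpl38 (the gene of the Tail short mouse, needed for translation of Hox mRNAs) were 2.74, 2.67 and 2.32 times their Metrn f/f 1 level in Metrn-cKO 1, beside 1.30 for the median member. Their transcripts were 390 (Rps29), 345 (Rps27), 437 (Rps28), 612 (Rpl39) and 457 (Rpl38) bases long. Rps29 differed by 0.18 ± 0.94 and Rps27 by 0.18 ± 0.98 between genotypes (log2(FPKM + 1), moderated SE, n = 2 per genotype). Without Metrn-cKO 1 both were lower in Metrn-cKO, at -0.84 and -0.53.

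Paralogs were next set beside their parent genes in the same library, which takes out any scaling that both share. Of the 11, 6 are protein-coding in GENCODE (Rpl3l, Rpl7l1, Rpl10l, Rpl22l1, Rpl39l and Rps27l) and 5 are processed pseudogenes there (Rpl6l, Rpl32l, Rps3a2, Rps3a3 and Rps4l), although their names carry no such mark. The coding paralogs differ enough from the parent for short reads to be told apart, and Rps27l is shown with Rps27 as the example. Both code for a zinc-binding protein of the small subunit, and Rps27l is known as a p53 target. Rps27 lies at chr3:90212522-90213651 (minus strand) and Rps27l at chr9:66946086-66949516 (plus strand). The 252 coding bases, from GENCODE release 21 on GRCm38, follow 5′ to 3′ with the 60 differing bases in capitals.
Rps27: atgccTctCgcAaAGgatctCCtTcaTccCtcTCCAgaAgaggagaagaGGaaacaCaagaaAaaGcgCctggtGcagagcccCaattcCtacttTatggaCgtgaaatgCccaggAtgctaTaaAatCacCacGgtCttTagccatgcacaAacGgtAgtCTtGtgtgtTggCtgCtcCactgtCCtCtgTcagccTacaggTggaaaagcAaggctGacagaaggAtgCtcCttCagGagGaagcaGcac
Rps27l: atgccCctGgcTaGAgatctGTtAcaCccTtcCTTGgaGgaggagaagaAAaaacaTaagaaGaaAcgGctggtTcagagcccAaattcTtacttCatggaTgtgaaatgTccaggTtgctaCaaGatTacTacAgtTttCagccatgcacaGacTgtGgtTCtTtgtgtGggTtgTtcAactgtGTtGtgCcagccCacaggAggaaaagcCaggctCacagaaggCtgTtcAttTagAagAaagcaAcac
The coding parts were 76.2% identical, and the longest run shared by the whole transcripts was 11 bases. Identity was 68.7% for Rpl22l1 and 54.9% for Rpl7l1, against 98.7% for Rpl6l, 99.5% for Rps3a2 and 99.0% for Rps3a3, where reads of parent and copy cannot be fully separated.

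Rpl22l1 was the only paralog at the level of its parent. Rpl22, a large subunit protein needed for T cell development, was at 149.8 and 284 FPKM in the Metrn f/f mice and 172 and 179 FPKM in the Metrn-cKO mice. Rpl22l1 stood at 149.9 and 420.1 FPKM in the Metrn f/f mice and 196 and 158 FPKM in the Metrn-cKO mice. Its ratio to Rpl22 was 1.00 and 1.48 in the Metrn f/f mice and 1.14 and 0.879 in the Metrn-cKO mice, so the genotypes overlapped and the paralog was the higher of the pair in Metrn f/f 2 and Metrn-cKO 1 and the lower in Metrn-cKO 2. Rpl22l1 is also the shorter transcript, at 552 bases against 2051 for Rpl22, and those 2 libraries had higher FPKM for short transcripts; the part of length in the ratio was not tested.

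Rps27l and Rpl7l1 were expressed well below their parents. Rps27l was at 87.8 and 302 FPKM in the Metrn f/f mice and 178 and 104 FPKM in the Metrn-cKO mice, which was 16.7% and 14.8% of Rps27 in the Metrn f/f mice and 9.25% and 14.5% in the Metrn-cKO mice. Both Metrn-cKO ratios were thus the lower ones, that of Metrn-cKO 2 by little. The difference in the log2 ratio, -0.44, was -0.11 without Metrn-cKO 1, the library in which Rps27 was 3.68 times its Metrn f/f 1 level and Rps27l 2.03 times. Rpl7l1, a protein of ribosome precursors related to Rpl7, was at 40.01 and 48.3 FPKM in the Metrn f/f mice and 42.8 and 42.2 FPKM in the Metrn-cKO mice, with the smallest fold of Metrn f/f 2 over Metrn f/f 1 among tested members. It made up 4.34% and 2.38% of Rpl7 in the Metrn f/f mice and 3.98% and 4.04% in the Metrn-cKO mice. In Metrn f/f 2, where the ratio was lowest, Rpl7 was 2.20 times its Metrn f/f 1 level and Rpl7l1 1.21 times; the Rpl7l1 transcript has 2606 bases. An exact permutation test of 2 against 2 libraries cannot go below 0.333, and the ratios are given as a description, with no test.

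The other paralogs were low or at 0. Rpl6l stayed between 8.76% and 10.1% of Rpl6, a nearly constant share. Rps3a2 and Rps3a3 were between 0.339% and 0.740% of Rps3a1, Rps4l between 0.359% and 0.930% of Rps4x, and Rpl32l between 0.0901% and 0.108% of Rpl32. Rpl10l, a copy active in male germ cells, was listed at 0 in all 4 libraries. Rpl39l, also known from male germ cells, was at 0.183 and 0.776 FPKM in the Metrn f/f mice and listed at 0 in both Metrn-cKO libraries. Rpl3l, the striated muscle form of Rpl3, was listed at 0 in Metrn f/f 1 and reached 0.502, 0.775 and 0.808 FPKM in Metrn f/f 2, Metrn-cKO 1 and Metrn-cKO 2. All 3 were under 1 FPKM throughout, too low to be tested.

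**Figure D4:**
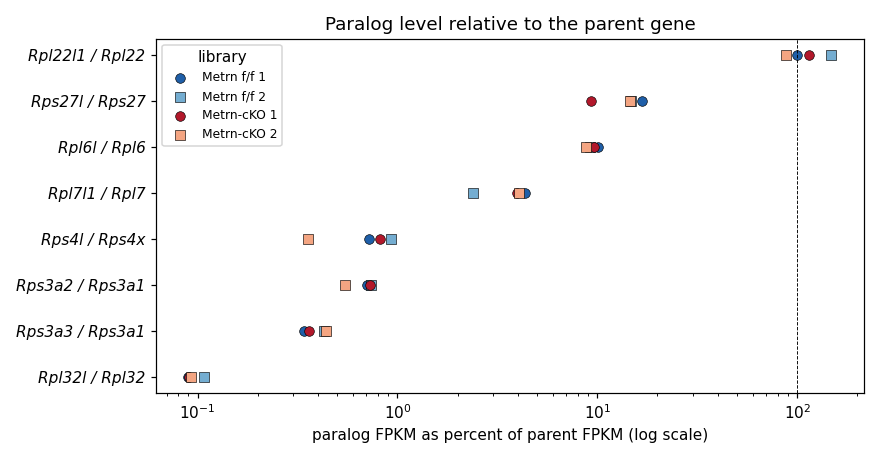
FPKM of each of the 8 tested paralogs as a percent of its parent gene (log scale), with 1 point per library and a dashed line at equal levels. Rpl22l1 lies around the line, Rps27l and Rpl6l between 8.76% and 16.7%, and Rps27l is lowest in Metrn-cKO 1.

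Rpl17, Rps27a and Rpl7a, named above as variable, have pseudogenes nearly identical to them. The tables hold 226 rows named as ribosomal protein pseudogenes, with 58 members having at least 1, and these rows summed to 7.82% and 7.76% of the member sum in the Metrn f/f mice and 7.71% and 8.57% in the Metrn-cKO mice. In 17 members they made up at least 10% of the gene and its pseudogenes together. Rpl21 had a share of 76.0% and Rps12 of 49.9%, with ranges of 0.070 and 0.34 relative to the genes that are not paralogs. With the pseudogene rows added their ranges were 0.17 and 0.19. The part of the pseudogene rows in these ranges was not tested. Rpl7a, a large subunit protein at chr2:26910764-26913318 (plus strand), and its copy Rpl7a-ps11 at chrX:166854211-166855011 (plus strand) differ at 2 of 798 aligned bases. Rps27a, which is made as a fusion with ubiquitin, lies at chr11:29545846-29548109 (minus strand) and differs from Rps27a-ps2 at chr9:83409660-83410126 (plus strand) at 1 of 467 aligned bases. A stretch of 90 bases of each pair, from coding base 141 to 230 of Rpl7a and 330 to 419 of Rps27a (GENCODE release 21, GRCm38), shows how little separates them, with the differing base in capitals.
Rpl7a: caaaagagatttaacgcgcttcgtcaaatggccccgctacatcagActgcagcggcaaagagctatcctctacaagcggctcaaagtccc
Rpl7a-ps11: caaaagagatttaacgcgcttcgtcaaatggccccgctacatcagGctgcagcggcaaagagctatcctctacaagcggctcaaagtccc
Rps27a: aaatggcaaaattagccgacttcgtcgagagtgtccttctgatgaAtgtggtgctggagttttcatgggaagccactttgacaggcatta
Rps27a-ps2: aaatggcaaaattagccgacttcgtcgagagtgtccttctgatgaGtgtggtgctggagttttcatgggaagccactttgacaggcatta
Reads from such stretches can be given to either row, so the level of the gene row alone is uncertain.

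Adding the pseudogene rows brought these genes closer to the other members. This sum was chosen after the values were seen, and FPKM of rows of unlike length add up only roughly. Rpl17 alone was at 287 and 1254 FPKM in the Metrn f/f mice and 389 and 144 FPKM in the Metrn-cKO mice, and with its 8 pseudogene rows at 1021 and 2602 FPKM against 1389 and 1210.1 FPKM. The fold of Metrn-cKO 2 over Metrn f/f 1 went from 0.503 to 1.19, where the median member had 1.17. Its difference between genotypes went from -1.34 to -0.33 on the log2(FPKM + 1) scale. Rps27a went from 437, 535, 530.2 and 204 FPKM to 589, 1324, 792 and 526 FPKM in Metrn f/f 1, Metrn f/f 2, Metrn-cKO 1 and Metrn-cKO 2, and its difference from -0.55 to -0.45. For Rpl7a the gene row was at 349.9 and 674 FPKM in the Metrn f/f mice and 230.4 and 246 FPKM in the Metrn-cKO mice, a difference of -1.03 ± 0.56 (moderated SE, n = 2 per genotype; limma adjusted p = 1.00). With its 12 pseudogene rows it stood at 584 and 1223 FPKM in the Metrn f/f mice and 605 and 564 FPKM in the Metrn-cKO mice, a difference of -0.53, and the genotypes overlapped. With 1 library left out, the gene row alone differed by -1.50 to -0.55 for Rpl7a and by -2.40 to -0.28 for Rpl17. Rpl7a, the only tested member whose genotypes did not overlap, therefore lost that order. Over the members with such rows, 3 came closer to the rest by more than 0.3 in range on the log2 scale, and 0 moved away by as much.

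**Figure D5:**
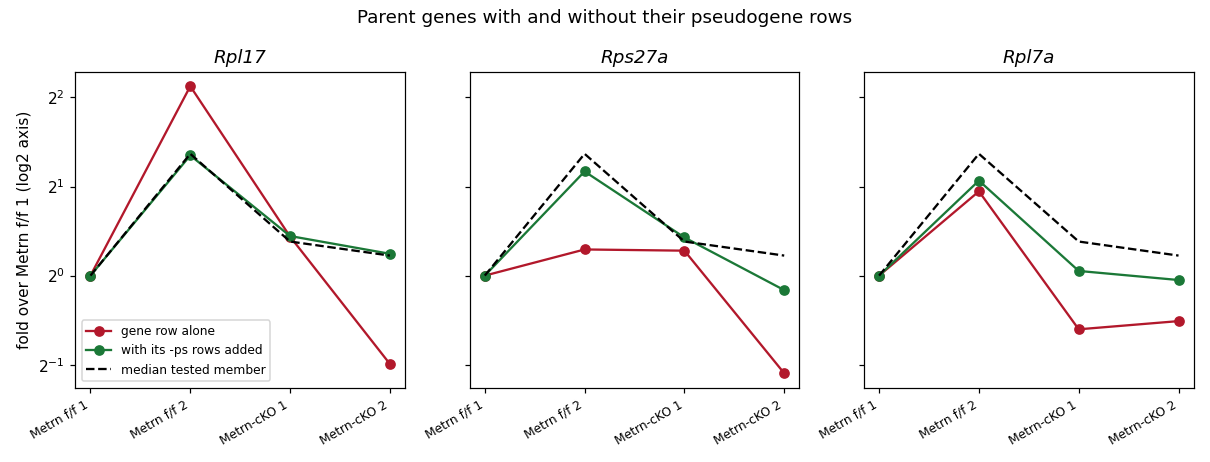
Fold over Metrn f/f 1 (log2 axis) of Rpl17, Rps27a and Rpl7a in each library, from the gene row alone (red) and with the pseudogene rows added (green), beside the median tested member (dashed). In Metrn-cKO 2 the rows alone are at 0.503, 0.468 and 0.702, and the sums at 1.19, 0.893 and 0.966.

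The start sites of the members were read from RefSeq (GRCm38.p6), which gave a promoter for 64 of them. The coding strand was searched within 20 bases of the start for a C followed by at least 5 pyrimidines (C or T). This is the form of the tract at the start of ribosomal protein mRNAs. Of the 57 genes that are not paralogs, 39 had a match at any of their listed starts (68.4%). The share with a match was 35.4% over all genes with a promoter there and 36.9% over tested genes. A match could begin before or after the start, so these are not shares of mRNAs that begin with the tract. CCGGAAG, the core bound by ETS factors, occurred on either strand within the 300 bases around the start in 42.1% of the 57, in 9.93% of all genes and in 20.9% of tested genes. TATAAA within 50 bases before the start occurred in 0 of the 57, which is 0%, beside 3.15% of all genes and 1.71% of tested genes. The 30 bases around the start are shown for Rps27, Rpl7a and the pair Rpl22 and Rpl22l1, with the tract in capitals.
Rps27, chr3:90213634-90213663, minus strand: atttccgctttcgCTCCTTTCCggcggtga
Rpl7a, chr2:26910792-26910821, plus strand: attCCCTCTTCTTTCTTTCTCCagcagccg
Rpl22l1, chr3:28805493-28805522, plus strand: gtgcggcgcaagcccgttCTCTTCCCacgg
Rpl22, chr4:152324421-152324450, plus strand: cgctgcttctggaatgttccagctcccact
The start shown for Rpl22 lies upstream of its GENCODE coordinates, which begin at base 152325742. Its other listed start, with the window chr4:152325711-152325740, lies next to them. The window of Rpl22 had no tract at either listed start, whereas that of Rpl22l1 did. Such matches describe the sequence only.

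Other genes of the translation machinery followed the members only in part. Of 6 measured ribosomal protein genes that the symbol rule misses (Rpl9-ps6 among them, also counted in the pseudogene rows above), 0 passed the test, and their median difference between genotypes was -0.38 on the log2(FPKM + 1) scale, near the -0.36 of the members. Among them Fau, a small subunit protein made as a fusion with a ubiquitin-like part, stood at 954 and 2941 FPKM in the Metrn f/f mice and 1452 and 1109 FPKM in the Metrn-cKO mice. For 20 translation factors and partners known for mRNAs that start with the same tract, 0 passed, with a median of -0.19. The tract was not scored for this list. Within that list Tpt1, a short abundant mRNA of 1169 bases, stood at 1374 and 3568 FPKM in the Metrn f/f mice and 1828 and 1521 FPKM in the Metrn-cKO mice. Eef2, the translocase of elongation, has 3089 bases and was at 1108 and 811 FPKM in the Metrn f/f mice and 835 and 1249.99 FPKM in the Metrn-cKO mice. This list was thus not uniform, and its longer Eef2 was lowest in Metrn f/f 2.

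Factors that make or assist ribosomes did not share the joint difference as lists. For 26 initiation and elongation factors 0 passed and the median difference between genotypes was 0.02; Eif1 and Eif1ax had both Metrn-cKO values lower. Of 21 genes of RNA polymerase I and rRNA transcription 0 passed, the median was -0.09, and Cd3eap had both Metrn-cKO values higher. Over 76 ribosome biogenesis factors 0 passed and the median was -0.02, with 10 genes lower in both Metrn-cKO libraries (5.73% of all tested genes were lower and 6.31% higher), among them Fbl, Nop10 and Gar1 of the modification particles, and 2 higher (Mphosph10 and Surf6). Nop10 was at 87.6 and 213 FPKM in the Metrn f/f mice and 79.5 and 84.8 FPKM in the Metrn-cKO mice, a difference of -0.73 ± 0.52 (moderated SE, n = 2 per genotype). Between the Metrn f/f libraries, the median difference of these 3 lists was 0.05, -0.31 and -0.21, where the members had 1.36 and all tested genes -0.23. The part of transcript length in these medians was not tested. Single abundant genes of these lists were nevertheless highest in Metrn f/f 2, as Nop10 was. Eif5a was at 634 and 1083 FPKM in the Metrn f/f mice and 786 and 638 FPKM in the Metrn-cKO mice. Polr2f was at 54.1 and 142 FPKM in the Metrn f/f mice and 62.2 and 65.3 FPKM in the Metrn-cKO mice. Ncl, the nucleolin gene, went the other way, at 128 and 77.3 FPKM against 87.4 and 128 FPKM.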

How the data were processed

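RNA-seq libraries of sorted LSK cells were analysed from the values deposited by the authors, 1 table per library with 47561 gene symbols. The authors deposited the values as decimals that are never negative, and they were taken as FPKM from the values, since the file headers name only the library. Per the submitters' processing notes, the tools were HISAT2 2.1, featureCounts 1.6.4, cutadapt 1.16.5, bcl2fastq 2.19 and DESeq2 2.11.40.6 and the build mm10 (GRCm38), with no role stated; which annotation was used, and how reads with several matches were counted, is not given in the sources used here. Depth is unknown: low values shared no step of 1 read, as at most 11 of 19543 genes had the same ratio between a pair of libraries.

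A count test had been planned if the files held counts. Because they hold FPKM, limma 3.58.1 (R 4.3.3) was run with an intensity trend on log2(FPKM + 1) over the 13148 genes that reached 1 FPKM in 2 or more libraries, 2-sided, with Benjamini-Hochberg adjustment over all of them and a threshold of 0.05. Differences are Metrn-cKO minus Metrn f/f; they understate the change of low genes. The fit was tested on simulated data whose noise came from the difference between Metrn f/f 1 and Metrn-cKO 2. These libraries were alike in their marker sums, so the simulation does not cover the wider spread between libraries of the same genotype. Gene types, coordinates and lengths came from GENCODE release 21, with 1 principal transcript per gene, and copies were aligned to coding sequences with Biopython 1.88.

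Named members are all paralogs with their parents, the 5 highest and 3 lowest of each subunit, those whose genotypes did not overlap, the 5 with the smallest p in each direction, the 5 most and 3 least variable relative to the median member, and 9 known from marrow failure or mouse mutants; of other lists the 4 highest were eligible. Rpl21, Rps15a, Rps12, Rps27rt, Rpl9-ps6, and genes of other lists whose genotypes did not overlap, were named after their values were seen. The members and lists were chosen with earlier results of these data known. Alternatives covered the pseudocount, the filter, the scaling, the variance trend, the replicate block and leaving out each library. The values of 1 gene of another list are not reported here.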

Additional observations from a re-analysis of the deposited data

How the results depend on the processing

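By limma, 0 members passed the test under each of the 11 other settings of the fit or its samples, and the smallest adjusted p of a member was 0.595, without Metrn f/f 1, against 0.595 to 1.00 over the alternatives. Among all genes the count of 0 became 5 without Metrn-cKO 1 and 34 without Metrn-cKO 2, and stayed between 0 and 34 when any library was left out. Where a genotype keeps a single library, that library is assumed to vary like the others. With the replicate number as a block, 4 of all genes passed and 0 members. The labels do not say what the number stands for, and same-numbered libraries deviated from their genotype's mean in opposite directions (correlation -0.71 over all tested genes). Pairing the numbers crosswise, an alternative added after the data were seen, gave 102 genes and 0 members.

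The summed small against large subunit level differed by 0.03 between genotypes on the log2 scale, by -0.15 when medians of the members replaced sums, and by -0.0014 between Metrn f/f 1 and Metrn-cKO 2 alone, also added later. Quantile normalization turned the differences of Rpl28 (0.022), Rpl38 (0.17), Rpl7l1 (0.031) and Rps18 (0.0054), and scaling by the median of ratios those of Rpl39 (-0.033) and Rps28 (-0.037); the cause was not tested. Of the 42 named members, 33 changed sign without Metrn f/f 2. Rpl17 (-2.40 to -0.28), Rpl7a (-1.50 to -0.55), Rps4l (-1.45 to -0.23) and Rps3a2 (-0.86 to -0.058) kept theirs whichever library was left out. The other lowest and highest differences were, for large subunit genes, Rpl10 -0.92 to 0.25, Rpl11 -0.89 to 0.32, Rpl13 -1.10 to 0.25, Rpl13a -1.04 to 0.31, Rpl22 -0.69 to 0.23, Rpl24 -0.96 to 0.42, Rpl28 -1.11 to 0.39, Rpl3 -0.48 to 0.014, Rpl32 -1.18 to 0.25, Rpl38 -0.76 to 0.71, Rpl39 -0.77 to 0.81, Rpl41 -1.15 to 0.51, Rpl5 -0.66 to 0.19, Rpl6 -0.86 to 0.22, Rpl7 -0.94 to 0.20, Rpl9 -1.02 to 0.34, Rplp1 -1.41 to 0.31. For small subunit genes they were Rps13 -0.95 to 0.43, Rps14 -1.36 to 0.25, Rps18 -1.01 to 0.40, Rps19 -1.22 to 0.36, Rps2 -1.12 to 0.14, Rps21 -0.95 to 0.46, Rps24 -1.11 to 0.14, Rps26 -1.10 to 0.37, Rps27 -0.79 to 1.163, Rps27a -1.24 to 0.13, Rps28 -0.76 to 0.78, Rps29 -0.84 to 1.20, Rps3a1 -0.69 to 0.11, Rps4x -0.80 to 0.14, Rps9 -0.99 to 0.22. For paralogs they were Rpl22l1 -1.25 to 0.23, Rpl32l -0.97 to 0.15, Rpl6l -0.86 to 0.073, Rpl7l1 -0.18 to 0.086, Rps27l -1.14 to 0.63, Rps3a3 -0.71 to 0.29. The depth behind the values is unknown, so counting error has no interval here.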
